A study of Mus musculus with 18 samples.

Results

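The regions described here are dense runs of neighbouring peaks of open chromatin on the mouse autosomes. A run was a row of at least 5 consecutive peaks in which every gap, from the end of a peak to the start of the next, was at most 2000 bp. By that rule 1195 of 160099 autosomal peaks, or 0.746%, lay in 211 runs, out of 166066 peaks in the whole list. The runs were chosen by measured values, namely the peak positions themselves, so their number, length, gaps and peaks per run are given as a description and carry no test.

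Open chromatin was mapped by ATAC-seq, in which a transposase cuts accessible DNA and leaves sequencing adapters there, in mouse embryonic stem cells of the line dTKO. The genotype, shared by every group, was Suv39h1fl/fl, Suv39h2-/- and Setdb1fl/fl, which concerns the genes of 3 enzymes that methylate histone H3 at lysine 9. Cells were grown in LIF and serum on gelatin. They received 100 µg/ml auxin together with 0.5 µM dTAG13, agents that cause proteins with a matching tag to be broken down. There were 3 biological repeats at each of 0, 3, 6, 12, 24 and 48 h, with 0 h as the baseline. The labels name 1 line for all 18 libraries and do not name the tagged proteins. The deposited result was 1 merged list of positions over all libraries, and it names no library and holds no counts, heights or scores. Depth and replicate error are therefore unknown, no time could be compared with 0 h, and whether neighbouring peaks were open in the same library or the same cell cannot be told apart. Of 32 autosomal pluripotency genes, 31 had a peak at an end of the gene, against 14973 of all 20558 autosomal protein-coding genes, 11 of 15 fibroblast markers and 7 of 11 blood cell markers. The count was also 18 of 18 for housekeeping genes, 22 of 22 for Polycomb genes and 14 of 15 for neural markers. It was 14 of 16 for germline genes, 12 of 15 for mesoderm markers and 9 of 15 for endoderm markers. A peak at an end therefore does not set the pluripotency genes apart.

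Accessible sites mark promoters, enhancers and other DNA that is not packed into closed nucleosome arrays. Groups of closely spaced sites are known at clustered enhancers of cell identity genes, at promoters with several start sites, and in tandem gene families, where each repeated unit can carry a site of its own. Genes for 5S ribosomal RNA, the small RNA of the large ribosomal subunit transcribed by RNA polymerase III, form such a tandem array in the mouse, and type I interferon genes lie in a cluster.

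The sequences shown here are the 250 bases upstream of annotated start sites at the Ifnz array, a row of evenly spaced peaks over interferon genes, and at 3 pluripotency genes that a run reached. They were chosen after their values were seen, to let the repeated units be compared by eye and set beside single-copy promoters. They come from RefSeq, build GRCm38.p6, are written 5′ to 3′ on the strand of the gene, and have every CpG in capitals.
Gm13290, chr4:88773584-88773833, plus strand: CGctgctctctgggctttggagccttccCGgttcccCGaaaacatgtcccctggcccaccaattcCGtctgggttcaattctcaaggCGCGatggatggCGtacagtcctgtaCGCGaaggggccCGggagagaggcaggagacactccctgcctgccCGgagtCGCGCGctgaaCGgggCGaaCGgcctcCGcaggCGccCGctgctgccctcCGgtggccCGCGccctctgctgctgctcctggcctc
Gm13289, chr4:88776512-88776761, plus strand: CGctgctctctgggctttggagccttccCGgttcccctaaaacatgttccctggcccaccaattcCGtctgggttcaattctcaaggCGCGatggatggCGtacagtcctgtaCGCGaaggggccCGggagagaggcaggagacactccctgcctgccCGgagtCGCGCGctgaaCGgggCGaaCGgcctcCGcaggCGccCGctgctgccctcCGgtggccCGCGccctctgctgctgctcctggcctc
Ifnz, chr4:88781881-88782130, plus strand: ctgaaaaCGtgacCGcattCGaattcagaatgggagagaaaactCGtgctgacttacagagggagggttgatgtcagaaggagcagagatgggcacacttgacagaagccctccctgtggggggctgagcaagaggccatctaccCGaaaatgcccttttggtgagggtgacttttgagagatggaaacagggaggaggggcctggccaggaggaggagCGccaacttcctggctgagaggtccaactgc
Zscan10, chr17:23600576-23600825, plus strand: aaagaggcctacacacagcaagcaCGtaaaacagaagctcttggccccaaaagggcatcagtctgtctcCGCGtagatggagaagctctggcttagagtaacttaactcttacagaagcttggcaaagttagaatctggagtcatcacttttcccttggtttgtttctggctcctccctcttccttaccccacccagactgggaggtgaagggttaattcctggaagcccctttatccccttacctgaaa
Mycn, chr12:12941837-12942086, minus strand: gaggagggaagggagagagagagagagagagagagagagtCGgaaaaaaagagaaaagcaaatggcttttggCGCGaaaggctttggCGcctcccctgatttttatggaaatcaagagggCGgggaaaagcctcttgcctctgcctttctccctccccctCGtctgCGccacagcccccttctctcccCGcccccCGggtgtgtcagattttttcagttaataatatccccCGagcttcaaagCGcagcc
Otx2, chr14:48665110-48665359, minus strand: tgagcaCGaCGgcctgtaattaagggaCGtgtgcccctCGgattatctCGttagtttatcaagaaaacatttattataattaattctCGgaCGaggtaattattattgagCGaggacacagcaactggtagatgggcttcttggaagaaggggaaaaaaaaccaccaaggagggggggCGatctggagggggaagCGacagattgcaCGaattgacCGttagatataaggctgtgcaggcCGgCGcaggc

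All 250 bases lay under a run peak for Gm13290, Gm13289 and Otx2, 153 did for Mycn, 101 for Zscan10 and 0 for Ifnz. Gm13290 and Gm13289 differed at 2 of 250 positions and held 23 and 22 CpG. Ifnz, whose annotated start lies elsewhere in its repeated unit, held 6 CpG. Zscan10 held 3 CpG at a GC content of 48.8%, Mycn 11 at 54.8% and Otx2 14 at 48.4%.

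Most runs were short. Exactly 5 peaks were found in 163 runs, or 77.3%, 6 peaks in 33, 7 peaks in 8 and 9 peaks in 3, and single runs held 13, 17, 23 and 46 peaks. Run length ranged from 3530 to 109526 bp with a median of 7072 bp and quartiles of 6156 and 8575 bp. Peaks covered a median of 40.3% of a run (range 22.3% to 75.9%), and all runs together spanned 1746 kb, or 0.0726% of the autosomal DNA between the outermost peaks. The widest peak of a run had a median width of 892 bp and the other run peaks 447 bp, a difference that picking the widest fixes in its direction. Over all run peaks the median width was 501 bp (range 198 to 2938 bp), against 579 bp for autosomal peaks outside runs.

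The 2000 bp limit did not fall at a natural break. Among all autosomal gaps, 1368 fell in the last 100 bp below the limit and 1270 in the first 100 bp above it, and 785 stretches of exactly 4 peaks, with a median length of 5361 bp, lay just outside the rule. Inside runs the median gap was 1100 bp, and 74 of 984 gaps fell in the last 100 bp below the limit. At the other extreme 21 gaps were at most 100 bp, where 2 listed peaks could also be read as 1.

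The number expected was taken as the mean over every possible order of the gaps within each autosome, which keeps each chromosome's peaks and gaps and removes only their order. That mean was 187 runs with 981 peaks, against 211 runs and 1195 peaks observed, a ratio of 1.13 for runs and 1.22 for peaks. Runs of exactly 5 peaks numbered 163, with 150 expected. Over all runs the ratio of observed to expected rose with the number of peaks. For at least 7 peaks 15 runs were observed and 7.47 expected, for at least 8 peaks 7 and 1.51, and for at least 9 peaks 7 and 0.31. When gaps were reordered only within stretches of 5 Mb, the direction turned, with 210 runs observed and 225 expected, a ratio of 0.933. Of the 7 runs with at least 9 peaks, 5 had evenly spaced peaks, and without the 7 evenly spaced runs described next, 2 runs of at least 9 peaks and 0 of at least 10 remained. With those 7 left out and the same expected means, the ratio was 1.09, 1.1, 1.2 and 1.32 for at least 5, 6, 7 and 8 peaks. It was 6.45 for at least 9, from 2 runs.

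**Figure D1:**
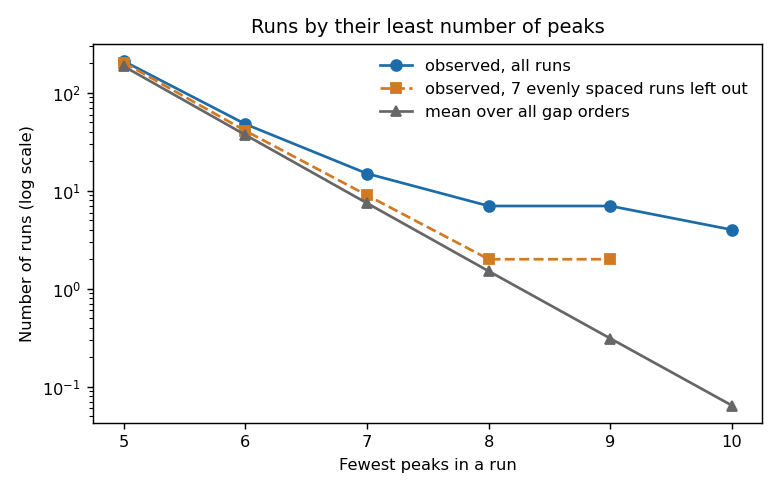
Number of runs with at least the number of peaks on the horizontal axis, on a log scale, as observed (circles), with the 7 evenly spaced runs left out (squares) and as the mean over all orders of the gaps within autosomes (triangles). The observed (circles) and expected counts lie close together at 5 peaks, 211 and 187. They are apart at 7 peaks, 15 and 7.47, and further apart at 9 peaks, 7 and 0.31. No square is drawn at 10 peaks because that count was 0.

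Runs were spread unevenly over the autosomes. Chromosome 11, with the most peaks per Mb (107), held 28 runs, close to the 29.1 expected from its own gaps. Chromosome 6 held 20 runs against 7.91 expected, and 17 without its evenly spaced runs. Chromosome 15 held 4 against 8.34. In all, 13 autosomes held more runs than expected and 6 held fewer. Neighbouring runs on an autosome lay a median of 4431 kb apart, and 10 of 192 neighbouring pairs were within 50 kb.

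**Figure D2:**
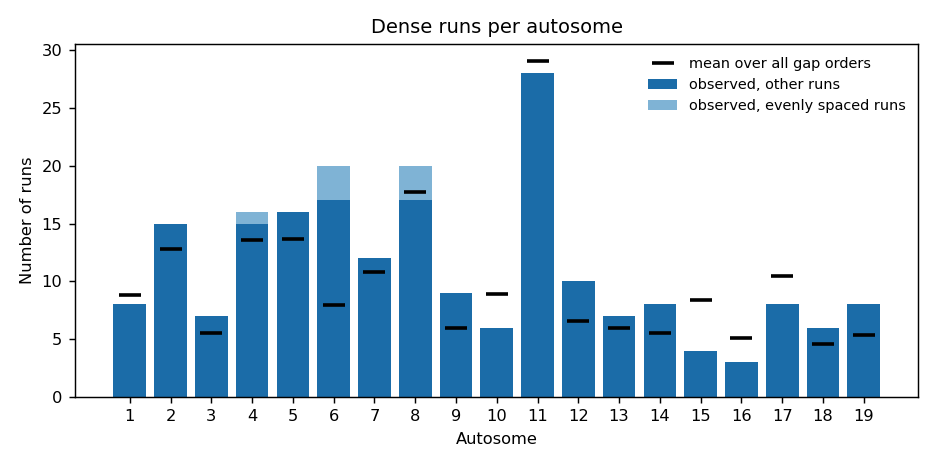
Number of dense runs on each of the 19 autosomes, with evenly spaced runs in the lighter shade and a black bar at the mean over all orders of that autosome's gaps. Chromosome 11 is highest with 28 runs near its expected 29.1, and chromosome 6 stands above its expected 7.91 with 20.

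A small class of runs had peaks at an almost constant distance from each other. The step, the distance between the centres of neighbouring peaks, had a coefficient of variation of 1.78% to 3.43% in 7 runs of at least 6 peaks, and of 9.14% to 65.4% (median 34.8%) in the other 41 such runs. The 7 runs, which were set apart after their steps were seen, held 121 peaks and lay in 3 places on chromosomes 8, 4 and 6. One run of exactly 5 peaks, near Wdr61 on chromosome 9, also had a variation under 5%. The sources used here do not give how reads matching several copies of a repeated unit were placed, and the part of that step in these runs was not tested.

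**Figure D3:**
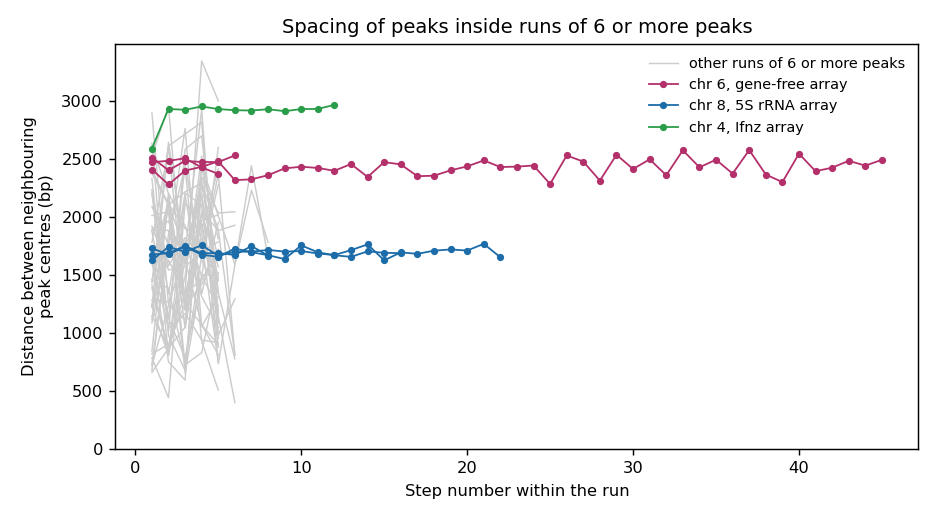
Distance in bp between neighbouring peak centres along each of the 48 runs of at least 6 peaks, by step number. The runs of the 3 arrays stay near 2901, 2430 and 1696 bp, apart from a first step of 2588.5 bp in the Ifnz array. The other 41 runs (grey) vary from step to step.

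The 5S ribosomal RNA array on chromosome 8 formed 3 of the evenly spaced runs, with 23, 17 and 9 peaks in chr8:123538542-123623901, a span of 85.4 kb. The step was 1696 ± 35.2 bp (SD, n = 46 steps of neighbouring peaks, which are not replicates), and peak widths ranged from 245 to 610 bp with a median of 424 bp. The annotation placed 51 genes there, 48 of them 5S rRNA genes of 119 to 121 bp and 3 pseudogenes, at a median spacing of 1698 bp. Each of the 49 peaks lay over exactly 1 of these genes, and 43 of the 48 rRNA genes lay wholly inside a peak. The peak centre lay between -120 and 26.5 bp from the centre of the rRNA gene, with a median of -51 bp. The rRNA gene n-R5s109 and the pseudogene n-R5s127 had no peak, and their positions fell in the gaps of over 2000 bp that divided the array into 3 runs. The 3 runs were thus 1 array with a pair of missing peaks. Of 60 autosomal rRNA genes 47 (78.3%) overlapped a run, all of them in this array, against 163 of 20558 protein-coding genes (0.793%), 55 of 12322 lncRNA genes (0.446%), 7 of 386 tRNA genes (1.81%) and 11 of 8797 pseudogenes (0.125%).

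The Ifnz array on chromosome 4 was a single run of 13 peaks in chr4:88770852-88806624, 35.8 kb long. Ifnz encodes interferon zeta, a type I interferon, and the other 11 protein-coding genes of the array carry provisional symbols from Gm13272 to Gm13290. The step was 2901 ± 99.6 bp (SD, n = 12 steps), and the peaks were broad, with a median width of 997 bp and a range of 786 to 1127 bp. The shortest step, 2588.5 bp, was the first of the run, and the longest was 2965 bp. Each of the 12 coding genes had exactly 1 run peak over its body, and 7 of 12 start sites lay under a peak. The distance from peak to start site fell into groups. The peak centre minus the start site was -1.5 bp at Gm13290 and 0.0 bp at both Gm13289 and Gm13279. It was -165.5 bp at Gm13272, -154.5 bp at Gm13285 and -158.5 bp at Gm13287. It was 504.5 bp at Ifnz, 510.0 bp at Gm13276, 506.0 bp at Gm13277 and 504.0 bp at Gm13278, so these start sites lay just outside their peak. The last 2 genes had 584.5 bp (Gm13275) and 529.5 bp (Gm13288).

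Except at Gm13275 and Gm13288, these groups were also groups by sequence of the upstream 250 bases. Both groupings were measured from the annotated start site in evenly spaced repeated units, so their agreement is not separate evidence. Gm13290 and Gm13279 were identical and Gm13289 differed from them at 2 positions, with 250 bases under a peak in all 3. Gm13272, Gm13285 and Gm13287 were identical to each other, again with 250 bases under a peak. Ifnz, Gm13276 and Gm13277 were identical and Gm13278 differed at 1 position, with 0 bases under a peak. Gm13288 also differed from Ifnz at 1 position and had 33 bases under a peak. Gm13275 differed at 181 positions from Ifnz and at 189 from Gm13290, and had 0 bases under a peak. GC content was 68.4% upstream of Gm13290 and 55.6% upstream of Ifnz, and the ratio of observed to expected CpG was 0.791 and 0.332. As these windows lie at different places in the repeated unit, the values compare parts of the unit rather than kinds of promoter. A further run of 5 peaks, 12.0 kb long and not evenly spaced (variation 21.2%), began at chr4:88752821 and reached the ends of Gm13271, Gm13286 and Gm13283, 6 kb before the array.

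The remaining array held no annotated gene. It lay in chr6:114490257-114637120, a span of 147 kb, in 3 runs of 46, 7 and 6 peaks, the first of which was the longest run of all at 109526 bp. The step was 2430 ± 71.4 bp (SD, n = 56 steps) and peak widths ranged from 411 to 823 bp with a median of 564 bp. The gaps of the runs reached 1999 bp, and 3 gaps of the span passed the limit, the largest at 2034 bp, so that 59 of its 61 peaks counted as run peaks. With gaps up to 3000 bp the span was 1 run of 61 peaks. The nearest protein-coding genes were Hrh1, a histamine receptor gene 6.96 kb from the first run, and Atg7, an autophagy gene 6.01 kb from the last. No sequence of these peaks was used here.

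**Figure D4:**
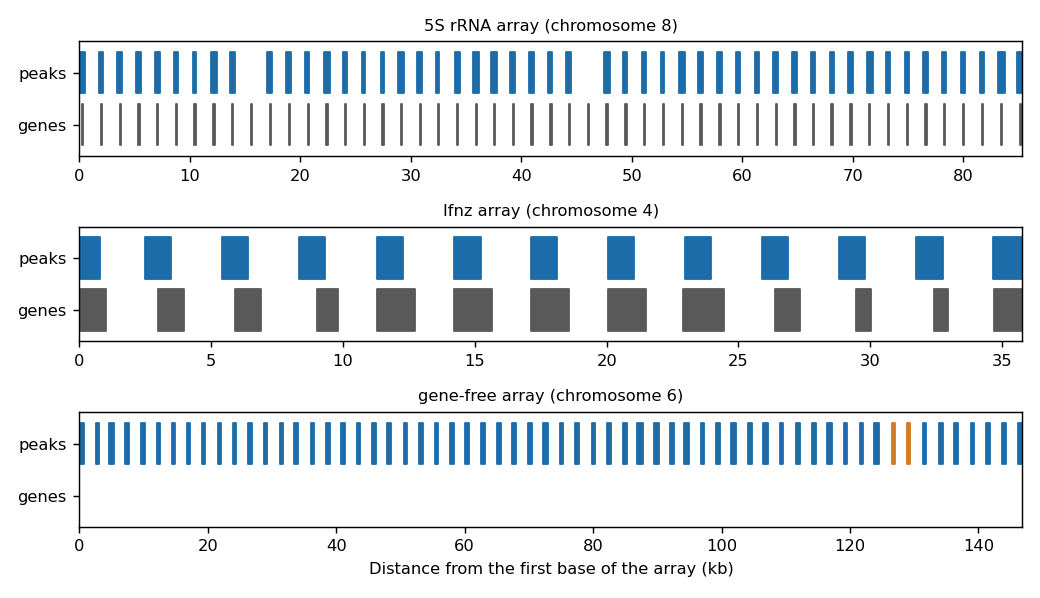
Peaks (upper row) and annotated genes (lower row) along the 3 evenly spaced arrays, as distance in kb from the first base of each. In the 5S rRNA array 49 peaks lie over 51 genes with a missing peak at both breaks, in the Ifnz array each coding gene has 1 peak, and in the gene-free array 59 run peaks (blue) and 2 other peaks (orange) have no gene beneath them.

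The other long runs had irregular steps. A run of 9 peaks on chromosome 10, 13.5 kb long, lay 11.8 kb from Ppp1r12a, which encodes a targeting subunit of myosin phosphatase. Its peaks were 519, 220, 1402, 316, 652, 284, 599, 390 and 357 bp wide. Another run of 9 peaks, on chromosome 5 over the lncRNA gene 2210417A02Rik, lay 119 kb from the nearest protein-coding gene, Katnal1, and none of its peaks was wider than 570 bp. Irregular runs of 7 peaks lay at Ppp1r10, which encodes a nuclear regulator of protein phosphatase 1, at the actin-binding protein gene Lasp1, at Gse1, at the small GTPase gene Rhof, at the chromatin remodeller gene Chd3, at Jade1, whose protein belongs to histone acetyltransferase complexes, and at the 14-3-3 gene Ywhae. The Gse1 run held the widest run peak, 2938 bp, and the Ywhae run packed 7 peaks of 230 to 590 bp into 7061 bp. Gse1, Jade1 and Ywhae held all 7 run peaks in their bodies, out of 81, 19 and 11 peaks in the body. Next in that order came Ap4s1, Auts2, Dysf, Etl4, Lasp1, Msi2 and Thoc1 with 6 run peaks each. Their bodies held 18, 71, 29, 102, 13, 78 and 9 peaks, in the order named. Among runs of 6 peaks, the longest irregular one lay over Lncenc1, a lncRNA gene expressed in embryonic stem cells, 235 kb from Enc1. A pair of runs near the start of chromosome 17 lay 98.2 and 83.7 kb from Scaf8, and a run of 10712 bp lay 9.17 kb from Etnk1. The run farthest from any annotated gene, of 5 peaks on chromosome 19, lay 97.3 kb from the pseudogene Pcna-ps2. It was followed by runs 35.2 kb from Vmn1r-ps2, 28.4 kb from Atg7, 27.6 kb from Gm13991 and 27.2 kb from Gm10232.

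Runs and genes met in several ways. In 87 runs (41.2%) a peak overlapped the 500 bp on either side of an end of a protein-coding gene, a further 81 runs (38.4%) overlapped a gene of any kind without that, and 43 (20.4%) touched no gene. Within 10 kb of a protein-coding gene lay 155 runs, and 8 lay more than 100 kb from one. A run has at least 5 peaks that can touch a gene, and no share was taken for like groups of other peaks. These shares by run are therefore a description and do not set runs apart from other peaks. By peak, 201 of 1195 run peaks (16.8%, 95% Wilson interval 14.8 to 19) had their midpoint at a gene end, counting genes of any kind, against 18212 of 158904 other autosomal peaks (11.5%, 11.3 to 11.6). The evenly spaced arrays weighed on that share, with 55 of 121 peaks (45.5%) at a gene end, and in the remaining runs it was 146 of 1074 (13.6%, 11.7 to 15.8). The share for run peaks was higher than for other peaks on 10 autosomes and lower on 9, and with protein-coding genes only it was 8.54% against 8.01%. Neighbouring peaks are not independent, so the intervals cover counting error only. Gene bodies held 46% of run peaks and 50.5% of other peaks, and intergenic DNA 37.2% and 38%. The broadest peak of a run lay at a gene end in 37 of 211 runs (17.5%, 13 to 23.2), and the other run peaks lay there in 164 of 984 cases (16.7%).

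Among 20558 autosomal protein-coding genes, 122 had a run peak within 500 bp of an end, a background share of 0.593%, and 570 had a run within 50 kb, a share of 2.77%. Against these shares, 4 of 32 pluripotency genes (12.5%) had a run peak at an end and 7 (21.9%) a run within 50 kb. The lists were drawn up with results of these data known and their genes are not replicates, so the shares are a description. The 4 genes were Mycn, a Myc family transcription factor gene, Dppa4, which encodes a chromatin-associated protein of pluripotent cells, Zscan10, a zinc finger gene of the pluripotency network, and Otx2, which encodes a homeobox factor of the primed state and of the forebrain. The run at Mycn had peaks 594, 396, 583, 1044 and 1362 bp wide with gaps of 1211, 1126, 1739 and 336 bp between them. It covered the gene from end to end and its broadest peaks stood at and upstream of the start site. The run at Dppa4 had peaks 301, 864, 440, 1399 and 673 bp wide, the broadest of them at the gene end. The same run lay 24.3 kb from Dppa2, the paralogue of Dppa4. The run at Zscan10 had peaks 1086, 1034, 379, 270 and 375 bp wide and also reached the end of Zfp13. At Otx2 6 peaks of 225 to 1011 bp stood in 7.22 kb. Its end was reached only by a peak of 235 bp at chr14:48668144-48668378, at the outer edge of the 500 bp beyond the gene's end at 48667644. With a window of 250 bp 3 of 32 pluripotency genes were reached, and Otx2 was not among them. The start site shown above lay under a peak of 676 bp in the gene body, which did not count as an end.

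Among the other pluripotency genes the nearest runs lay beside the gene rather than on it. Klf5, a Krüppel-like factor gene, had a run of 5 peaks 31.1 kb away in which 2 neighbouring peaks were only 2 bp apart. Nanog, a core homeobox factor gene, had a run of 5 peaks 46.4 kb away in the body of the glucose transporter gene Slc2a3, and Dppa3 lay 131 kb from the same run. Sox2, whose known stem cell enhancer cluster lies downstream of the gene, had a run in chr3:34755021-34761608, 103 kb downstream, with peaks 506, 220, 587, 576 and 1606 bp wide. Utf1 lay 132 kb from a run, Esrrb 246 kb, Lin28a 376 kb, Klf2 414 kb, Pou5f1 419 kb and Tet1 666 kb. The median distance over the list was 2249 kb, against 3339 kb for all autosomal protein-coding genes. The remaining 17 genes lay at least 2191 kb away. They were Sall4, Tbx3, Stat3, Prdm14, Tcf3, Tet2, Zfp281, Nr5a2, Tdgf1, Tcf7l1, Lin28b, Tfcp2l1, Dppa5a, Zfp42, Klf4, Myc and, farthest at 41213 kb, Gbx2. The bodies of Esrrb and Tcf7l1 held 35 peaks each, with no run among them.

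Signalling genes of embryonic stem cells came next, with 3 of 28 (10.7%) reached by a run. These were Id1, a target of BMP signalling, Bmp4, a ligand of that pathway, and Spry2, an inhibitor of receptor tyrosine kinase signalling induced by FGF. Peaks at Bmp4 were 566, 1107, 442, 668 and 463 bp wide and the peak of 668 bp lay at an end of Bmp4. At Id1 the peaks were 942, 1014, 1020, 484 and 420 bp wide, and at Spry2 the broadest, 1258 bp, overlapped an end of the gene beside 3 narrower peaks in the body.

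Lineage genes reached by a run numbered 1 in each of the lists named here, beside 0.593% of all autosomal protein-coding genes. They were Tfap2c, a trophoblast and germline transcription factor gene (1 of 14 trophoblast genes, 7.14%), Irx3, a homeobox gene of the neural tube (1 of 15 neural genes, 6.67%), and Hand1, a factor gene of mesoderm and trophoblast (1 of 15 mesoderm genes, 6.67%). The Irx3 run held 6 peaks in 9.67 kb, with 1804 bp for the broadest. Among neural genes Nes also lay near a run, at 18 kb. In the Hox clusters 1 run of 6 peaks, 6.19 kb long, reached both Hoxb5 and Hoxb6, or 2 of 39 Hox genes (5.13%). It also put Hoxb2, Hoxb3, Hoxb4, Hoxb7, Hoxb8 and Hoxb9 within 50 kb, which gave 8 of 39 genes (20.5%) from that single run. Among Polycomb genes Kdm2b, whose protein binds unmethylated CpG, was reached (1 of 22, 4.55%), and a run overlapped Suz12 with no run peak at its ends.

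Zinc finger genes of the Zfp series were reached in 7 of 388 cases (1.8%) and had a run within 50 kb in 20 (5.15%). The 7 were Zfp13, Zfp503, Zfp516, Zfp532, Zfp534, Zfp987 and Zfp988. Of the 20, 7 lay on chromosome 4, where Zfp534, Zfp978, Zfp979, Zfp981, Zfp987, Zfp988 and Zfp992 shared 4 runs. These genes form a family of related neighbours, and whether reads were split between copies was not tested. Ribosomal protein genes were reached in 2 of 91 cases (2.2%), among them Rps20, which lay wholly inside a run of 6 peaks.

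In 13 of 22 lists no gene was reached. Of all autosomal protein-coding genes only 0.593% had a run peak at an end and 2.77% a run within 50 kb. At these shares a small list would mostly hold no such gene, so a count of 0 there does not set the list apart. None of the 5 autosomal H3K9 methyltransferase genes had a run within 50 kb. Setdb1 lay 982 kb from the nearest run, Ehmt2 1015 kb, Ehmt1 4193 kb, Setdb2 4984 kb and Suv39h2 17115 kb, and Suv39h1, on chromosome X, was outside the rule. The count was also 0 of 25 for readers of that mark and DNA methylation genes, 0 of 18 for housekeeping genes, of which Actb had a run 41.7 kb away, and 0 of 16 for imprinted genes, of which Cdkn1c had one 2.8 kb away. No endoderm, germline, fibroblast, blood cell or 2-cell stage marker was reached, and neither was any of 67 histone genes or 57 clustered protocadherin genes. The largest such families were the olfactory receptors, with 0 of 1103, and the vomeronasal receptors, with 0 of 349. Only 55 and 16 genes of these families had a peak of any kind at an end.

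**Figure D5:**
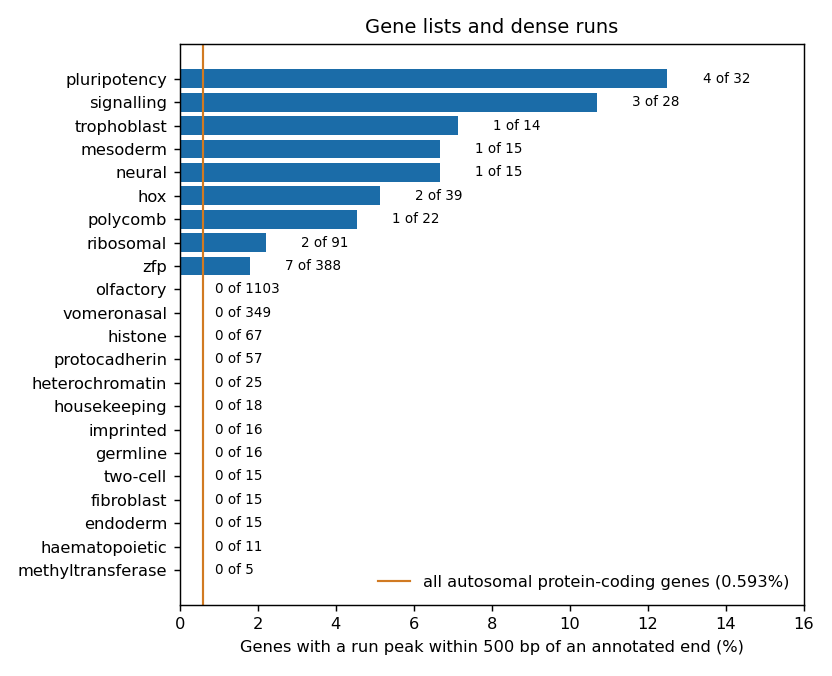
Share of the genes in each of 22 lists with a run peak within 500 bp of an end, in percent, with the counts beside the bars and a line at the 0.593% of all autosomal protein-coding genes. Pluripotency (4 of 32) and signalling (3 of 28) lists have the longest bars and 13 lists are at 0.

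Promoters under runs had an intermediate CpG content. For 64 promoters of 53 genes with the start site in a run peak, the upstream 250 bases had a median GC content of 62.2% (quartiles 55.2% and 67.6%) and a median ratio of observed to expected CpG of 0.615 (0.446 to 0.791). For 13453 promoters with the start site in a peak outside runs these medians were 60.8% and 0.724 (0.518 to 0.889), and for 6568 promoters with no peak at the start site 45.6% and 0.161. A ratio over 0.6 was found in 51.6%, 66.8% and 3% of these promoters. Run promoters were thus GC-rich like other accessible promoters, with a lower CpG ratio. Without the evenly spaced runs the medians were 61.6% and 0.59 over 57 promoters. Searched on both strands in the same windows, the GC box GGGCGG was in 48.4% of run promoters, 60.7% of promoters with another peak and 43.4% of all 20085. Without the evenly spaced runs the first of these was 54.4%, with the same 31 promoters holding it. The letters CCAAT were in 32.8%, 35.6% and 35.3%, and the TATA letters TATAAA in 1.56%, 5.78% and 11.7%. The 1.56% was 1 promoter of 64. A match is a description of letters and not of binding.

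MicroRNA genes lay inside 5 runs. The 7 genes, of 1136 autosomal ones (0.616%), were Mir129-2, Mir129b, Mir7660, Mir7687, Mir1900, Mir212 and Mir132. Every one of them overlapped a run peak itself. Of protein-coding genes 0.793% overlapped a run and of lncRNA genes 0.446%, so the microRNA share did not stand out. Mir212 and Mir132, a neuronal pair of neighbouring genes, lay in a run of 5 peaks, 9.1 kb long, that also reached the end of Hic1, a transcriptional repressor gene. Their mature 3p strands, from RefSeq, are shown because they share a seed, bases 2 to 8, in capitals.
miR-132-3p, chr11:75173723-75173744, plus strand: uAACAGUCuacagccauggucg
miR-212-3p, chr11:75173443-75173464, plus strand: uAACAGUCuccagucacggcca

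Both carry the seed AACAGUC. Mir129-2 and Mir129b are annotated on opposite strands of the same DNA, within a run of 7.22 kb on chromosome 2, and their mature strands have different seeds.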

How the data were processed

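The deposited file holds positions, a unit classed as other, of 166066 ATAC-seq peaks merged over 18 libraries, with 0 columns of values per sample. Builds mm10 and GRCm38 and the tools MACS2 2.2.7.1, Bowtie2 2.4.2 and Trimmomatic 0.36 appear, without their roles, in the submitters' processing notes. The merging, the peak threshold and the treatment of duplicates and of reads with several matches are not given in the sources used here. A threshold or merging step sets which gaps exist, and so which runs do.

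Autosomal peaks were sorted by start and runs were found by gap. The expected number of runs is an exact mean over gap orders, computed in closed form with no random draw and tested on simulated data. Genes came from RefSeq GRCm38.p6, without strand, and 333 scaffold rows were left out. A gene end covered 500 bp before and after each annotated boundary. Genes were counted by any overlap of a peak with an end, and peaks by their midpoint. Start sites and upstream bases came from a RefSeq promoter table with 16457 matched protein-coding genes. The planned test of each later time against 0 h was not run. The runs, lists and tests were chosen with earlier results of these data known. Genes are named for the 20 runs with most peaks, the 10 longest runs, the 5 farthest runs, the 10 genes with most run peaks and list members in list order. All pluripotency and H3K9 methyltransferase members are named, and of other lists up to 6 with a run and up to 4 without. A gene outside this rule was chosen after its values were seen, and some genes that the rule covers are not reported here. Alternatives changed the gap, the fewest peaks, the window, peak joining and peak width. Scripts ran under scipy 1.17.1, pandas 2.3.3, numpy 2.4.6 and matplotlib 3.10.9 in Python 3.11.15.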

Additional observations from a re-analysis of the deposited data

How the results depend on the processing

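The number of runs, 211, was set by the rule. It was 12 with gaps up to 1000 bp, 854 with gaps up to 3000 bp, 996 with at least 4 peaks, 7 with at least 8 and 6 with peaks at least as wide as the median, and peaks in runs then numbered 63, 4846, 4335, 126 and 38. The ratio of observed to expected runs, 1.13, was 0.692 with gaps up to 1000 bp and 0.933 with gaps reordered within 5 Mb, both below 1, and 1.38, 4.62 and 1.98 with gaps up to 3000 bp, at least 8 peaks and wide peaks. The share of run peaks at a gene end, 16.8%, was 20.6% and 13.6% with gaps up to 1000 and 3000 bp, 13% and 44.4% with at least 4 and 8 peaks, 36.8% with wide peaks, 11.6% and 39% with windows of 250 and 2000 bp, and 8.54% with protein-coding genes only. Other peaks, at 11.5% in the report, then had 17.8% with wide peaks, 7.51% and 23% with these windows and 8.01%. Without evenly spaced runs, an alternative chosen after seeing the data, it was 13.6% against 11.5%, and 37.6% against 23% with a window of 2000 bp. Protein-coding genes with a run peak at an end, 0.593% of all, was 0.0535% and 2.32% with gaps up to 1000 and 3000 bp, 2.15% and 0.0584% with at least 4 and 8 peaks, 0.0876% with wide peaks and 0.496% with a window of 250 bp. The pluripotency share, 12.5%, was 18.8% with gaps up to 3000 bp, 25% with at least 4 peaks, 9.38% with a window of 250 bp, and 0 with gaps up to 1000 bp, at least 8 peaks or wide peaks, which leave few runs. Joining neighbours within 100 bp gave 193 runs and a ratio of 1.09. For the other changes the cause was not tested. No paired analysis was possible because the list names no library. Depth is unknown.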

Other observations

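Genes of developmental transcription factors outside the lists also had run peaks at an end. They were picked after their values were seen, and no share is given. Dlx1 and Dlx2, neighbouring homeobox genes of the forebrain, each had a run of their own on chromosome 2, of 5 peaks in 6.63 kb and of 6 peaks in 9.31 kb. Gsx1, a homeobox gene of the ventral forebrain, had 3 of the 5 peaks of its run at its ends, and so did Foxb2, a forkhead gene. The smallest gap was 6 bp in the Dlx1 run and 66 bp in the Gsx1 run. With such neighbours read as 1 peak, neither would have the 5 peaks of a run. At Neurog3, a factor gene of endocrine precursors, the peak at the gene end was 1725 bp wide, and it was the broadest of a run of 9.75 kb. Lmx1b, Dbx1, Nkx2-3, Ebf3, Tbx4 and Tfap2a were reached by runs of 5 or 6 peaks as well. Outside this class, the cyclin gene Ccnd2 had 5 peaks in 4.71 kb with gaps of 124 to 480 bp, a run in which no gap came near the limit of the rule.

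The tRNA genes in runs came from few places. Of the 7, n-TSaga6, n-TMcat10 and n-TQctg8, lay on chromosome 13, n-TQctg5 and n-TEttc3 lay on chromosome 3, and n-TCgca56 and n-TCgca51 lay at the Lasp1 run on chromosome 11.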
